A study of Ictalurus punctatus with 14 samples.

Results

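The genes described here are bglapl (gene identifier 108272374), an osteocalcin-like gene, and otos (108256635), the gene of otospiralin. They are 2 of the 23231 genes counted in whole channel catfish (Ictalurus punctatus) embryos and larvae, and they were chosen by their measured values in these libraries: among DEGs whose stages did not overlap and whose higher stage mean reached 10 CPM (counts scaled to library size), they rose most from 6 to 7 dpf (days post fertilization), and otos also fell most from 5 to 6 dpf. Their changes between these stages are therefore given as a description, without a test. The study followed early development of the Kansas random strain at 2 dpf and on each day from 5 to 10 dpf, with 2 replicate pools of whole fish of unknown sex per stage and 14 libraries in all. Fish of 2 dpf were embryos inside the chorion, larvae of later stages carried a shrinking yolk sac, and feed was given from 7 dpf. Age was the condition compared, no genotype differed between stages, and each pool mixed the RNA of several fish. The paper also states that treatments, which it does not name, were stopped before the expected hatch. Feeding and these treatments changed with age, so their parts cannot be told apart, and feeding began at the stage to which both genes rose. The question asked here was how far the levels of both genes followed the day of development and how far they alternated between the stages of 5, 7 and 9 dpf and those of 6, 8 and 10 dpf.

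Osteocalcin, also called bone Gla protein, is a small protein that osteoblasts secrete into bone. Its glutamate residues are carboxylated in a reaction that needs vitamin K, and the carboxylated residues bind calcium and the mineral of bone. Matrix Gla protein (mgp) belongs to the same family and is known in mammals for holding back mineral deposition in cartilage and vessels. Otospiralin is a small secreted protein first described in fibrocytes of the mammalian cochlea, where it is needed for normal hearing. A fish has no cochlea, and the fish inner ear holds otoliths, which are mineral bodies with their own matrix proteins. Skeletal tissue and ear are a small portion of a whole larva, so a difference in either gene between these libraries can come from fewer cells or from less RNA per cell, and these cannot be told apart.

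Total counts ranged from 4349807 to 16097718 per library, and 3 counts, taken as the smallest level that a library can show, were 0.186 to 0.690 CPM. The totals were 4349807 to 6755272 at 5, 7 and 9 dpf and 7944619 to 16097718 at 6, 8 and 10 dpf and did not overlap. Depth and the alternation of stages therefore cannot be told apart by design. Counts drawn down at random to the smallest total, given below, do not separate them. Replicates correlated over genes with r of 0.983 to 0.989 up to 8 dpf, and with 0.962 and 0.931 at 9 and 10 dpf. Between replicates, 282 to 711 genes were at least 2-fold apart up to 8 dpf, against 1257 and 2794 at the last 2 stages. Of 7 markers of other tissues that were found in the table, 6 (elavl3, gfap, myl7, ckma, mpx and kdrl for neurons, glia, heart, muscle, neutrophils and vessels) had at least 3 counts in all 14 libraries, and the intestinal gene fabp2 in 12 of 14. The label of whole body was met by these markers.

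bglapl was near zero in embryos, low at 5 and 6 dpf and high from 7 dpf on. It had 2 and 0 counts in replicates 1 and 2 at 2 dpf, which are below the limit of 3 counts. Its normalized level was 1.80 and 1.85 CPM at 5 dpf (8 and 11 counts), and 2.37 and 1.75 CPM at 6 dpf (23 and 18 counts). At 7 dpf it was 37.2 and 38.6 CPM (226 and 260 counts), above both libraries of 6 dpf by more than 10 times. No library of 7 to 10 dpf other than replicate 2 of 10 dpf was below the level of 7 dpf. The levels were 67.2 and 44.6 CPM at 8 dpf (1043 and 387 counts), 54.3 and 178 CPM at 9 dpf (385 and 959 counts), and 124 and 17.0 CPM at 10 dpf (1320 and 154 counts). A clear step between pools that agreed closely within their stages was thus seen from 6 to 7 dpf, and it was followed by libraries that differed widely within a stage.

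As stage means, bglapl was at 0.106 ± 0.150 CPM in embryos of 2 dpf, 1.83 ± 0.0312 and 2.06 ± 0.436 at 5 and 6 dpf, 37.9 ± 0.982 and 55.9 ± 16.0 at 7 and 8 dpf, and 116 ± 87.4 and 70.4 ± 75.4 at 9 and 10 dpf (SD, n = 2 at each). Ordered from the lowest mean, the stages were 2, 5, 6, 7, 8, 10 and 9 dpf. The replicates of 5 and 6 dpf overlapped, as did those of 8 and 10 dpf and those of 10 and 9 dpf. The levels of 2 and 5 dpf, of 6 and 7 dpf, and of 7 and 8 dpf did not overlap. With the counts of both pools added, bglapl was 17.4-fold higher at 5 dpf than at 2 dpf (19 against 2 counts), with an exact 95% interval of 4.19 to 154 that covers counting error only.

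otos went up and down between neighboring stages. It had 3 and 1 counts at 2 dpf, 0.319 and 0.104 CPM. Its level was 18.0 and 14.6 CPM at 5 dpf (80 and 87 counts), and fell to 0.618 and 0.389 CPM at 6 dpf (6 and 4 counts), near the limit of detection. At 7 dpf it was back at 30.3 and 25.1 CPM (184 and 169 counts). Both libraries of 5 dpf and both of 7 dpf were thus above both of 6 dpf by more than 20 times. From 8 dpf on, the pools of a stage were apart: otos was at 11.3 and 3.34 CPM at 8 dpf (175 and 29 counts), 2.11 and 38.2 CPM at 9 dpf (15 and 206 counts), and 5.62 and 0.443 CPM at 10 dpf (60 and 4 counts). The highest library of all was replicate 2 of 9 dpf, while replicate 1 of the same stage was below both libraries of 8 dpf.

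The mean level of otos was 0.211 ± 0.152 CPM in embryos of 2 dpf, 16.3 ± 2.42 and 0.503 ± 0.162 at 5 and 6 dpf, 27.7 ± 3.68 and 7.31 ± 5.61 at 7 and 8 dpf, and 20.2 ± 25.5 and 3.03 ± 3.66 at 9 and 10 dpf (SD, n = 2 at each). From the lowest mean, the order of stages was 2, 6, 10, 8, 5, 9 and 7 dpf, so that the means of 6, 8 and 10 dpf all lay below those of 5, 7 and 9 dpf. Stages next to each other in this order overlapped in their replicates for 6 and 10 dpf, 10 and 8 dpf, 5 and 9 dpf, and 9 and 7 dpf. They did not overlap for 8 and 5 dpf. Those of 2 and 6 dpf did not overlap either, but with 3 and 1 against 6 and 4 counts they were too near the limit of detection to be told apart. All 4 libraries of 5 and 7 dpf were above the 6 libraries of 6, 8 and 10 dpf, whereas the libraries of 9 dpf lay on either side. Against 2 dpf, the added counts of 5 dpf were 76.3-fold higher (167 against 4 counts, exact 95% interval 29.3 to 283).

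**Figure D1:**
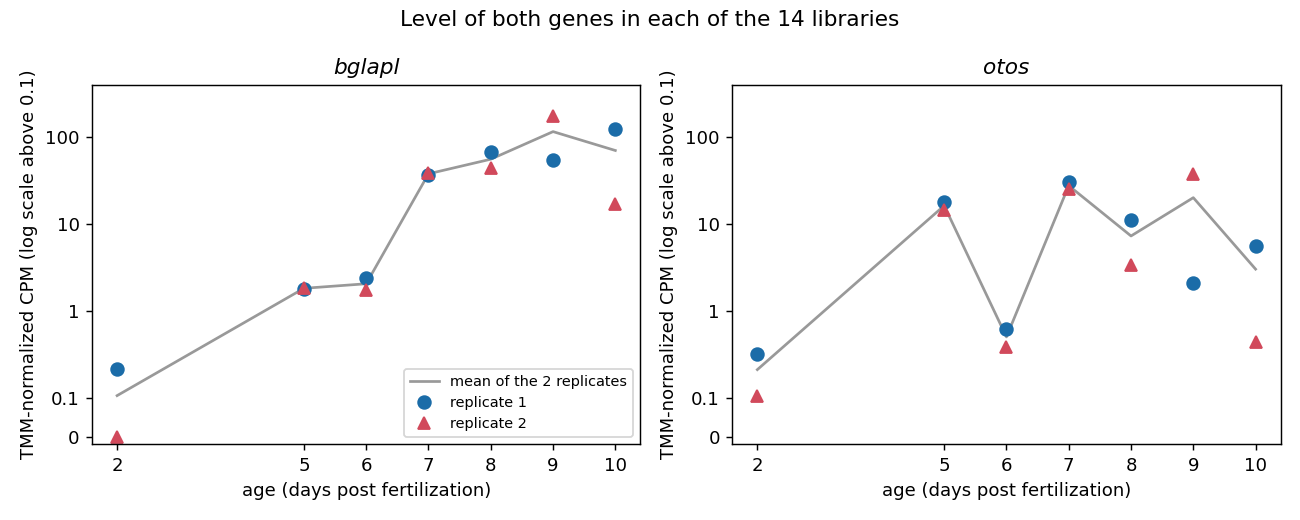
Normalized level (CPM, on an axis that is logarithmic above 0.1 and linear below) of bglapl and otos in each of the 14 libraries against the day of development, with a point for each replicate pool and a line through the stage means. bglapl was at most 2.37 CPM up to 6 dpf and at least 17.0 CPM from 7 dpf on, and otos was at most 0.618 CPM at 6 dpf between levels of 14.6 to 30.3 CPM at 5 and 7 dpf.

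The fitted changes between neighboring stages (edgeR, log2 scale, with approximate SE) put both genes at the edge of the distribution for the intervals by which they were chosen. Of 20329 genes, 7.34% were called higher and 2.56% lower at 6 dpf than at 5 dpf (9.9% in either direction), and 1.22% were called higher and 1.4% lower at 7 dpf than at 6 dpf (2.61% in either direction), with an adjusted p under 0.05 and a log2 change of at least 1. From 6 to 7 dpf, otos rose by 5.75 (SE 1.29) and bglapl by 4.20 (SE 0.88), and they were the 5th and the 15th of these genes from the highest. The next gene under the same rule, just outside the choice, was chia.1, a chitinase gene, with 3.80. From 5 to 6 dpf, the fitted log2 change of otos was -4.98 (SE 1.33), the 2nd from the lowest of all genes tested, whereas that of bglapl was 0.17 (SE 1.31). The changes at later intervals were 0.56 (SE 0.67), 1.04 (SE 0.66) and -0.71 (SE 0.65) for bglapl from 7 to 8, 8 to 9 and 9 to 10 dpf, and -1.86 (SE 0.89), 1.36 (SE 0.90) and -2.64 (SE 1.0) for otos. Leaving out replicate 2 of 9 dpf turned the change from 8 to 9 dpf to -0.05 for bglapl and -1.84 for otos, and the change from 9 to 10 dpf to 0.38 and 0.57. The change of bglapl from 9 to 10 dpf was also turned, to 0.14, without replicate 2 of 10 dpf. The directions after 8 dpf thus rested on single libraries.

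Trend and alternation were then separated in a fit of the 12 libraries of 5 to 10 dpf with the day as a linear term and a term for the side, which is 5, 7 and 9 dpf minus 6, 8 and 10 dpf. The fitted slope of bglapl was 1.23 (SE 0.23) on the log2 scale per day, and it was the 62nd highest of 19998 genes. Its side difference was 1.07 (SE 0.62), the 176th from the highest. This was less than 2 SE from 0. It was 1.37 (SE 0.65) without replicate 1 of 9 dpf and 1.61 (SE 0.61) without replicate 1 of 8 dpf. It was 0.86 (SE 0.65) without replicate 2 of 6 dpf and 0.86 (SE 0.74) without replicate 2 of 9 dpf. A single step up from 6 to 7 dpf also gives a positive slope and a positive side difference in this fit. For bglapl neither value can therefore be told apart from the effect of that step. otos had the reverse: a slope of 0.19 (SE 0.24), the 3298th from the highest, and a side difference of 2.69 (SE 0.76), the highest of 19998 genes. A single low stage at 6 dpf, as used for the choice, also gives a positive side difference. The value of 2.69 therefore does not by itself show alternation over all stages from 5 to 10 dpf. In limma with stage as a random block, the side difference of otos stayed close to this value, but its SE was larger, at 1.21. The SE of bglapl was 0.80 in that fit. The contrast between both genes in their side differences was thus less firm there. The medians of all genes tested were 0.01 for the slope and 0.02 for the side difference. Since the alternation and the changes between neighboring stages were used to choose these genes, the ranks describe the choice and are no test of it. Of all genes, 19.3% were called for the day term (12.9% rising and 6.37% falling) and 1.4% for the side term (0.74% higher and 0.66% lower at 5, 7 and 9 dpf).

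The slopes were then taken within each side. Among the libraries of 5, 7 and 9 dpf alone, the slope of bglapl was 1.39 on the log2 scale per day. Among those of 6, 8 and 10 dpf it was 1.09, so it was above 0 on both sides. The step from 6 to 7 dpf lies within the span of each side and alone makes both slopes positive. These slopes therefore do not separate a trend with day from that step. The slope of otos was -0.20 among 5, 7 and 9 dpf and 0.36 among 6, 8 and 10 dpf, so the sign of its slope was not the same on both sides. Without the day term the side difference of bglapl fell to 0.26, while that of otos was 2.50. With all libraries drawn down to 4349807 counts, the side difference was 2.65 for otos and 1.09 for bglapl, and the slopes were 0.14 and 1.16. A random draw keeps the share of each gene on average, so these values had to stay close. They cannot show whether depth, or handling that went with it, had a part in the side difference.

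**Figure D2:**
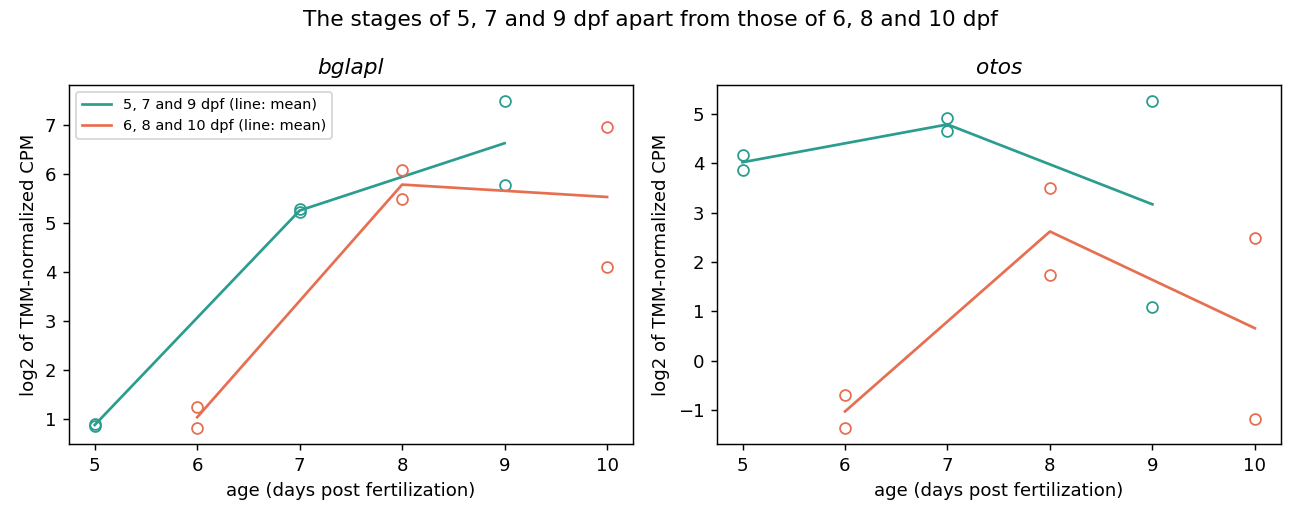
log2 CPM of bglapl and otos by day, drawn apart for the stages of 5, 7 and 9 dpf and those of 6, 8 and 10 dpf, with a point for each library and a line through the stage means of each side. Both lines of bglapl end above their start, with fitted slopes of 1.39 and 1.09 per day, whereas the line of otos for 5, 7 and 9 dpf stays above the other, with slopes of -0.20 and 0.36. The slopes were fitted with a prior count of 2, and the points are drawn without it.

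A second description used each inner stage against the mean of the stages before and after it on the log2 scale, which removes a straight trend. For otos these values were -4.87, 3.68, -1.34 and 1.41 for the stages of 6, 7, 8 and 9 dpf. The sign of these stage means thus alternated, and the size was largest at 6 and 7 dpf. A single low stage at 6 dpf also gives a negative value at 6 dpf and a positive value at 7 dpf. The sign at 9 dpf rested on replicate 2 of that stage. Without it, the fitted change of otos was -1.84 from 8 to 9 dpf and 0.57 from 9 to 10 dpf. For bglapl they were -1.96, 1.77, -0.16 and 0.97 for the same stages. The signs were the same as for otos, but a single step between 6 and 7 dpf also gives the values of opposite sign at these stages, and the value at 8 dpf was near 0. In the libraries of 5 to 8 dpf alone, where replicates were closer, the side difference was 3.48 for otos and 1.84 (SE 0.19) for bglapl. These stages hold the intervals by which the genes were chosen. A step from 6 to 7 dpf alone also gives a positive side difference there, so the value of bglapl is no measure of alternation. A low stage at 6 dpf alone does the same, so the value of otos is not such a measure by itself either.

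**Figure D3:**
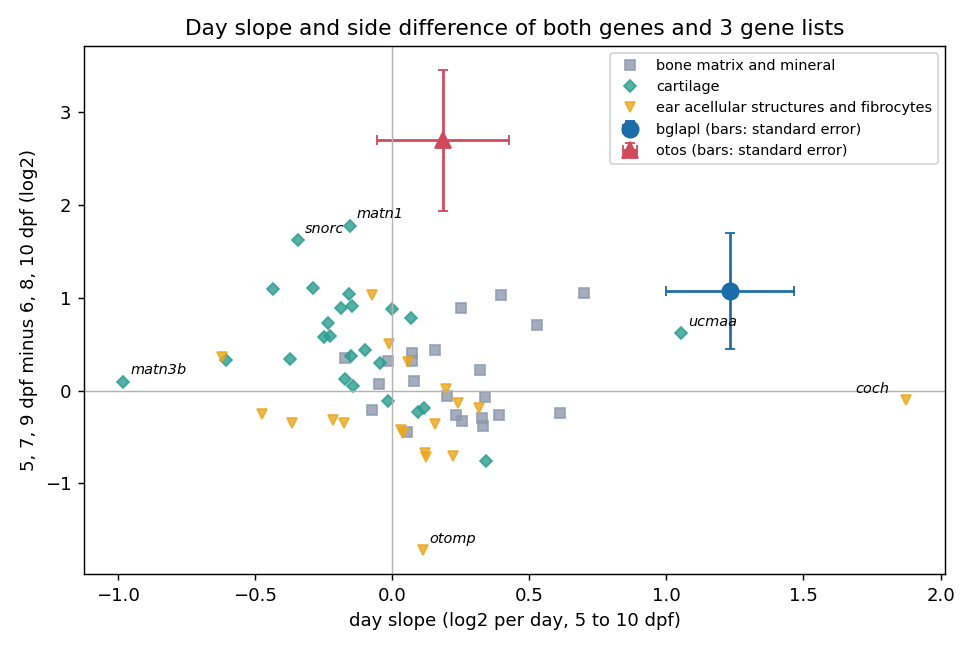
Fitted day slope (x axis, log2 per day) against side difference (y axis, log2, 5, 7 and 9 dpf minus 6, 8 and 10 dpf) in the 12 libraries of 5 to 10 dpf, for bglapl and otos (bars are SE) and for the tested bone, cartilage and ear acellular structure genes, with a symbol per gene. bglapl lies to the right at a slope of 1.23 and a side difference of 1.07, and otos at the top at 0.19 and 2.69.

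Both genes had pools further apart at 9 and 10 dpf than at 5 to 8 dpf. For bglapl the higher pool exceeded the lower 1.51-fold at 8 dpf (replicate 1 higher, exact 95% interval 1.34 to 1.70), 3.28-fold at 9 dpf (replicate 2 higher, 2.91 to 3.70) and 7.26-fold at 10 dpf (replicate 1 higher, 6.14 to 8.63). At 5, 6 and 7 dpf its interval included 1. The corresponding folds of otos were 3.37 at 8 dpf (2.27 to 5.18), 18.1 at 9 dpf (10.7 to 32.9) and 12.7 at 10 dpf (4.71 to 48.1), with the same replicate higher as for bglapl at each of these stages. At 9 dpf no other gene of 20329 had replicates as far apart as otos, and for bglapl 0.915% of genes did. At 10 dpf, 0.339% of genes were at least as far apart as bglapl and 0.216% as otos. Over the 7 stages the same replicate was higher for both genes at 5.

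Most genes of the cartilage, bone matrix and osteoclast lists were apart between the same pools. At 9 dpf, 22 of 25 cartilage genes were higher in replicate 2 than in replicate 1 (median log2 difference of replicate 1 minus replicate 2, -1.43), and at 10 dpf 23 of 25 were higher in replicate 1 (median 1.62). Of the 22 bone matrix and mineral genes tested besides bglapl, 19 were higher in replicate 2 at 9 dpf (median -0.29) and 19 in replicate 1 at 10 dpf (median 1.40). All 13 osteoclast genes were higher in replicate 1 at 10 dpf, with a median of 1.07. The osteoblast regulators were not apart in this way. Of these, 14 of 26 were higher in replicate 1 at 9 dpf (median 0.10) and 13 of 26 at 10 dpf (median 0.002). For all genes tested the medians were -0.03 at 9 dpf and 0.02 at 10 dpf, and normalization keeps such medians near 0. Over all genes tested, the deviations of replicate 1 from the stage mean had r of -0.585 between 9 and 10 dpf. The opposite split of the pools at these stages was therefore not particular to skeletal genes. Hair cell genes, with medians of 0.31 and -0.24, and otic patterning genes, with 0.21 and -0.40, had the sign opposite to cartilage and bone matrix at both stages. The genes of ear acellular structures and fibrocytes other than otos had the sign of cartilage and bone matrix. Their medians were -0.28 at 9 dpf (12 of 19 higher in replicate 2) and 0.96 at 10 dpf (14 of 19 higher in replicate 1). mgp was 2.62-fold higher in replicate 2 of 9 dpf and 6.48-fold higher in replicate 1 of 10 dpf, and spp1, which encodes osteopontin, 2.12-fold and 4.73-fold. What made the pools differ was not tested, and the part of these skeletal genes in the spread of otos was not tested either.

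**Figure D4:**
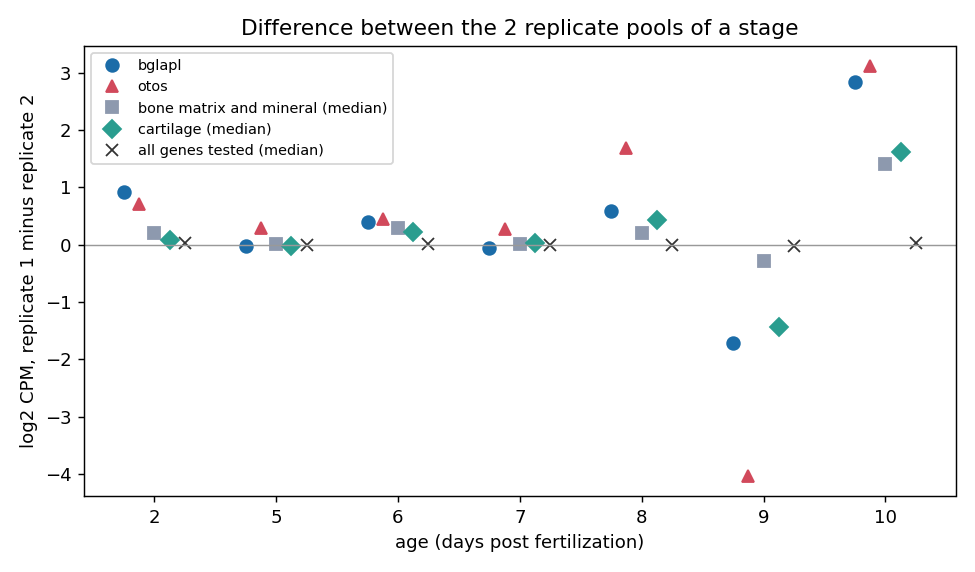
log2 difference of replicate 1 minus replicate 2 at each stage, for bglapl and otos, with the medians of the bone matrix and cartilage lists and of all genes tested. At 9 dpf both genes are below 0 (-1.71 and -4.03) with the cartilage median at -1.43, and at 10 dpf both are above 0 (2.84 and 3.11) with the cartilage median at 1.62.

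Without replicate 1 of 9 dpf and replicate 2 of 10 dpf, the pools that were low in both genes, the slope of bglapl was 1.51 and the side difference of otos 3.0. Leaving out 1 library at a time gave slopes of 1.14 to 1.38 for bglapl and side differences of 2.34 to 3.67 for otos. The side difference of otos was highest without replicate 1 of 8 dpf, the pool that had the most otos reads at that stage. Each of these values kept its direction.

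Other genes of the bone matrix were compared to see which of them rose with day as bglapl did. Of 22 bone matrix and mineral genes tested besides bglapl, 10 rose from 5 to 10 dpf in the edgeR fit, beside 12.9% of all genes, and 0 fell (1 had a negative slope at an unadjusted p under 0.05, and DESeq2 called 11 and 0). The median slope of the list was 0.24 on the log2 scale per day, against 0.01 for all genes tested. The count was 3 without replicate 2 of 5 dpf, 4 without replicate 1 of 5 dpf, 5 without replicate 2 of 9 dpf, 14 without replicate 1 of 9 dpf and replicate 2 of 10 dpf together, and 2 in limma with stage as a random block. spp1 had a slope of 0.70 (SE 0.20, adjusted p = 0.0163 in edgeR, and adjusted p = 0.0918 with an estimated correlation of pools within a stage). scpp5, a secretory calcium-binding phosphoprotein gene, had a slope of 0.61 (SE 0.15, adjusted p = 0.00738 in edgeR, and adjusted p = 0.0813 with an estimated correlation). mgp had 0.53 (SE 0.14, adjusted p = 0.0124 in edgeR, and adjusted p = 0.122 with an estimated correlation). The slope of scpp1 was 0.40 (SE 0.14, adjusted p = 0.0360 in edgeR, and adjusted p = 0.105 with an estimated correlation). The collagen gene col1a1a had 0.39 (SE 0.11, adjusted p = 0.0161 in edgeR, and adjusted p = 0.0470 with an estimated correlation) and phex, a phosphate-regulating endopeptidase gene, 0.25 (SE 0.043, adjusted p = 0.000740 in edgeR, and adjusted p = 0.00413 with an estimated correlation). None of these slopes reached the 1.23 of bglapl.

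At the step from 6 to 7 dpf, spp1 and scpp1 were the bone genes that rose with bglapl. spp1 was at 3.19 and 2.92 CPM at 6 dpf and 32.5 and 24.5 CPM at 7 dpf, a log2 rise of 3.21 (SE 0.60, adjusted p = 0.0126 in edgeR). The phosphoprotein gene scpp1 was at 4.22 and 1.56 CPM at 6 dpf and 18.6 and 18.1 CPM at 7 dpf, a log2 rise of 2.67 (SE 0.54, adjusted p = 0.0163 in edgeR). These 2 of 22 rose, whereas 1.22% of all genes did, and the count was between 0 and 4 when 1 library was left out, with 0 without either library of 6 or of 7 dpf and 4 without either of 10 dpf. mgp was at 9.88 and 6.52 CPM at 6 dpf and 29.0 and 29.0 CPM at 7 dpf, and its change of 1.82 (SE 0.66) did not pass the test (adjusted p = 0.120 in edgeR). mmp9, a matrix metalloproteinase gene of osteoclasts and of neutrophils, was at 28.4 and 25.6 CPM at 2 dpf and at 2.47 and 2.63 CPM at 6 dpf. From 6 to 7 dpf it rose by 3.52 (SE 0.72, adjusted p = 0.0174 in edgeR), to 30.7 and 28.2 CPM. It was the 1 of 13 osteoclast genes that rose there, and the count was 0 without any 1 library of 6 or 7 dpf and 2 without either of 10 dpf. bglap, the other gene with an osteocalcin symbol in the RefSeq annotation of Coco_2.0 and the neighbor of mgp there, had a mean of at most 0.778 CPM at any stage and was too low to be tested.

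The carboxylase gene and the vitamin K epoxide reductase genes were not called for a trend with day. ggcx, the carboxylase that modifies Gla proteins, had a slope of -0.079 (SE 0.046, adjusted p = 0.193 in edgeR), and vkorc1, which recycles vitamin K, -0.11 (SE 0.083, adjusted p = 0.300 in edgeR). Between neighboring stages ggcx changed by 0.63 from 5 to 6 dpf (adjusted p = 0.0172 in edgeR). Over the step of bglapl from 6 to 7 dpf, ggcx changed by -0.62 (adjusted p = 0.0443 in edgeR). Both changes were too small to be called. vkorc1l1, a related reductase gene, had a slope of -0.16 (SE 0.036, adjusted p = 0.00479 in edgeR), a decline too small over the 5 days to be called. Of 11 genes of carboxylation and vitamin D tested, 2 rose with day, beside 12.9% of all genes, nqo1 (slope 0.35, SE 0.076, adjusted p = 0.00383 in edgeR) and the calcium channel gene trpv6 (slope 0.26, SE 0.053, adjusted p = 0.00241 in edgeR). Of 26 osteoblast regulators, 4 rose and 4 fell with day, beside 12.9% and 6.37% of all genes. Those that rose included runx2a (slope 0.27, SE 0.060, adjusted p = 0.00371 in edgeR), a transcription factor of early bone formation, while sp7, which acts after it, had a slope of 0.19 (SE 0.091, adjusted p = 0.120 in edgeR). From 6 to 7 dpf, 11 of the 26 regulators fell and 2 rose at an unadjusted p under 0.05. None reached the log2 change of 1 needed for a call. The largest change was -0.92 for lrp5 (adjusted p = 0.0157 in edgeR). The share of all genes at the unadjusted threshold was not counted. In the osteoclast list 3 of 13 rose, beside 12.9% of all genes: mmp9 (adjusted p = 0.0206 in edgeR, and adjusted p = 0.138 with an estimated correlation), mmp13b (adjusted p = 0.0173 in edgeR, and adjusted p = 0.131 with an estimated correlation) and tnfrsf11a (adjusted p = 0.00331 in edgeR, and adjusted p = 0.0120 with an estimated correlation). This count was 1 without replicate 2 of 9 dpf and 2 to 4 without any other 1 library. The gene that fell was the acid phosphatase gene acp5a (slope -0.57, SE 0.071, adjusted p = 8.34e-05 in edgeR), of which macrophages are another source.

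Among 19 other genes of the acellular structures and fibrocytes of the ear, 1 was called for the side term, in the direction opposite to otos. This gene, otomp, encodes a matrix protein of the otolith and was lower at 5, 7 and 9 dpf by 1.72 on the log2 scale (side difference -1.72, SE 0.32, adjusted p = 0.00558 in edgeR). It was at 3.83 and 2.52 CPM at 5 dpf, 12.6 and 12.6 CPM at 6 dpf, and 3.30 and 1.78 CPM at 7 dpf. The share of all genes called was 0.66% for lower and 0.74% for higher at 5, 7 and 9 dpf. The median side difference of the list was -0.32, and 5 of 19 genes were above 0. coch, which encodes cochlin and marks the fibrocytes of the mammalian ear, did not pass the test for the side term (side difference -0.10, SE 0.59, adjusted p = 0.935 in edgeR) but rose with day, with a slope of 1.87 (SE 0.23, adjusted p = 7.24e-05 in edgeR). Its level was 14.3 and 14.9 CPM at 7 dpf and 199 and 179 CPM at 8 dpf, the interval over which the mean of otos dropped. stm, which encodes the otolith protein starmaker, declined with day with a slope of -0.47 (SE 0.057, adjusted p = 6.50e-05 in edgeR). otos2, another gene named otospiralin, which was picked out after its values were seen, had means of 172 CPM at 5 dpf and 78.2, 58.9, 41.4, 30.5 and 15.6 CPM from 6 to 10 dpf, each below the one before.

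Of the 8 lists, cartilage genes had side differences most often in the direction of otos. Of 25 tested, 21 were above 0, with a median of 0.58 on the log2 scale against 0.02 for all genes tested. At an unadjusted p under 0.05, 9 were higher and 1 was lower at 5, 7 and 9 dpf. The osteoblast regulators went the other way, with 1 of 26 higher and 10 lower at that threshold. The share of all genes at that threshold was not counted. After adjustment 1 of the 25 cartilage genes was called in edgeR, snorc, which encodes a small proteoglycan of cartilage (side difference 1.62, SE 0.45, adjusted p = 0.0416 in edgeR, and adjusted p = 0.216 with an estimated correlation). The share of all genes called as higher at 5, 7 and 9 dpf was 0.74%. The count moved with most libraries: it was 9 without replicate 1 of 9 dpf, 5 without replicate 1 of 8 dpf, and 8 without replicate 1 of 9 dpf and replicate 2 of 10 dpf together, and it was 0 without any 1 library of 5, 6 or 7 dpf, without replicate 2 of 8 dpf, without replicate 2 of 9 dpf, in the fit with a replicate block, and in limma with stage as a random block. Between 5 and 6 dpf, 4 of 25 fell, beside 2.56% of all genes, and 1, the collagen gene col11a1b, rose (2.31, SE 0.28, adjusted p = 0.000374 in edgeR), beside 7.34%. The count that fell without 1 library was from 1 (either of 5 or 6 dpf left out) to 11 (either of 10 dpf left out). Between 6 and 7 dpf, 2 of 25 rose, hapln1b (log2 change 1.75, SE 0.33, adjusted p = 0.0133 in edgeR) and acanb (1.42, SE 0.34, adjusted p = 0.0328 in edgeR), which encode a link protein and aggrecan of the cartilage matrix. This count was 0 without any 1 library of 6 or 7 dpf, 1 without either of 5 dpf, and 6 without any 1 library of 9 or 10 dpf. matn1, the gene of the cartilage protein matrilin-1, was at 509 and 507 CPM at 5 dpf, 69.9 and 42.1 CPM at 6 dpf, and 484 and 511 CPM at 7 dpf. Its fall from 5 to 6 dpf of -3.18 (SE 0.94) passed the test (adjusted p = 0.0318 in edgeR), and its return of 3.15 (SE 0.94) did not (adjusted p = 0.0705 in edgeR). At 9 dpf matn1 was at 32.6 and 389 CPM, apart in the same direction as otos. Of the cartilage genes called for the day term, ucmaa rose most, with a slope of 1.05 (SE 0.16, adjusted p = 0.000369 in edgeR). The largest declines were -0.98 for matn3b (SE 0.10, adjusted p = 1.91e-05 in edgeR), -0.61 for matn3a (SE 0.11, adjusted p = 0.000972 in edgeR) and -0.43 for ucmab (SE 0.12, adjusted p = 0.0157 in edgeR).

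Over all 14 libraries, bglapl and otos had a Pearson r of 0.604 and a Spearman rho of 0.591 on the log2 CPM scale, given without p because both were chosen for a shared rise and the libraries share stages and pools. In the 12 libraries of 5 to 10 dpf, without the embryos in which both were low, r was 0.363 and rho 0.350, and without the 2 libraries farthest from the median of bglapl these were 0.377 and 0.309. With the lists the likeness was uneven. The median r with bglapl was 0.809 over 22 bone genes and 0.422 over 25 cartilage genes in the 14 libraries, and 0.682 and -0.080 in the 12 libraries of 5 to 10 dpf. The median r with otos was 0.540 over the bone genes and 0.737 over the cartilage genes in the 14 libraries, and 0.376 and 0.723 in the 12. For genes of ear acellular structures and fibrocytes the median r with otos was 0.187 in the 14 libraries and 0.034 in the 12. For hair cell genes it was 0.188 in the 14 and turned to -0.377 in the 12, with 6 of 24 genes above 0. For all genes tested it was 0.062 and 0.016.

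The genes most like each member were taken by Pearson r of log2 CPM over the 14 libraries, among 17329 genes whose highest stage mean was 5 CPM or more. For bglapl they were cfd (r = 0.991), which encodes complement factor D, aqp8a.2 (0.983), an aquaporin gene, spp1 (0.982), LOC108275831 (0.979), hykk.2 (0.979), a gene named for hydroxylysine kinase, LOC108274852 (0.977), LOC108258810 (0.972) and the collagen gene col21a1 (0.969). All 8 had their highest mean of log2 CPM at 9 dpf, as bglapl did. cfd was at 17.8 and 12.1 CPM at 6 dpf and 40.9 and 45.3 CPM at 7 dpf, and like bglapl was higher in replicate 2 of 9 dpf (62.9 and 108 CPM) and in replicate 1 of 10 dpf (86.3 and 25.2 CPM). For otos they were fgfbp2b (r = 0.953), pim3 (0.947), gstt1b (0.938), entpd1 (0.937), shisa10.1 (0.931), cavin1b (0.927), timp2b (0.926) and manea (0.924). fgfbp2b, named for a protein that binds fibroblast growth factors, was at 39.4 and 41.6 CPM at 5 dpf, 3.40 and 2.53 CPM at 6 dpf, 39.9 and 39.1 CPM at 7 dpf, 12.6 and 10.0 CPM at 8 dpf, 3.52 and 33.0 CPM at 9 dpf, and 7.03 and 1.33 CPM at 10 dpf. It followed otos stage by stage, in the split between the pools of 9 and 10 dpf too. By Spearman rho, 1 of these 8 genes was again among the 8 most like bglapl and 0 of 8 for otos, and by the 7 stage means 4 of 8 in each, so the names depend on the measure.

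**Figure D5:**
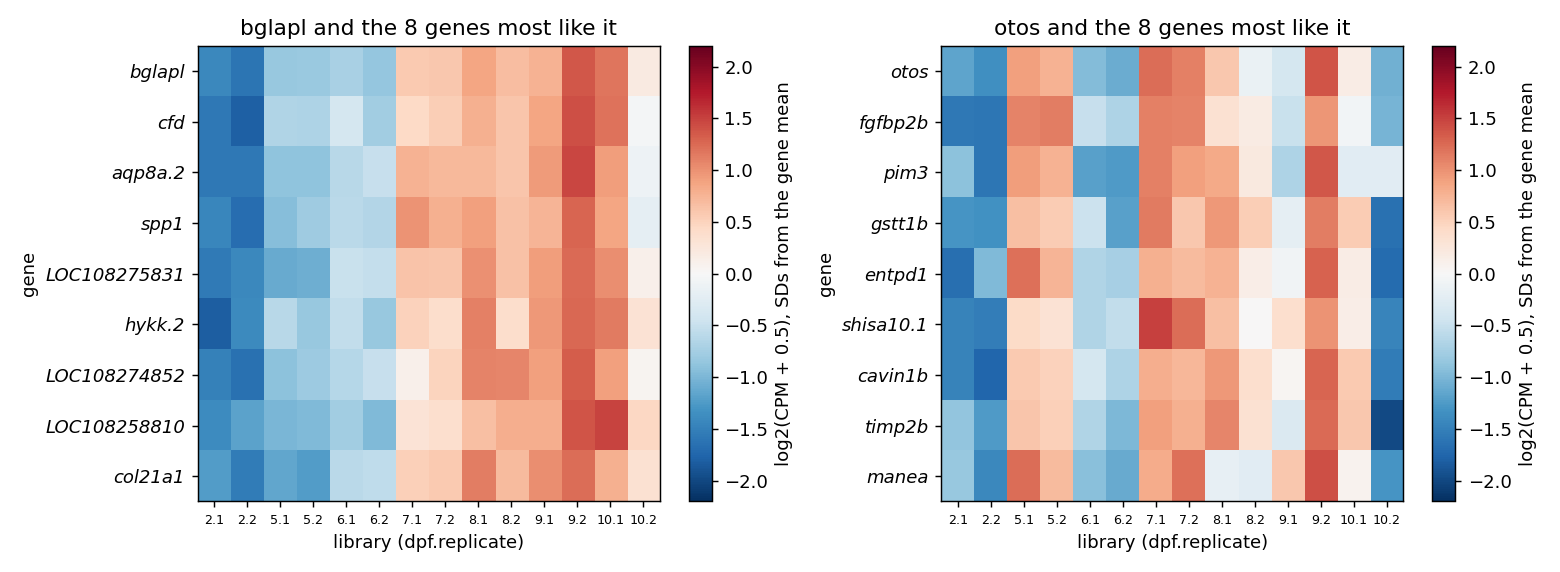
Heat maps of bglapl, otos and the 8 genes with the highest Pearson r to each (rows) in the 14 libraries ordered by stage and replicate (columns), where the color is the log2 level in SDs from the mean of the gene, blue below and red above it. The genes beside bglapl have r of 0.969 to 0.991 and their highest mean of log2 CPM at 9 dpf. Those beside otos have r of 0.924 to 0.953 and a dip at 6 dpf.

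No annotated gene overlaps bglapl or otos in Coco_2.0. The genes next to bglapl, LOC108272924 and LOC108272402, had r of -0.812 and 0.713 with it over the 14 libraries, and those next to otos, cops9 and apodb, 0.106 and 0.308 with otos. Of the genes next to bglapl, the first went opposite to it and the other with it, at no more than 10.0 CPM in any library, and those next to otos were little like it.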

How the data were processed

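Whole embryos and larvae were pooled per replicate, ribosomal RNA was depleted, and the authors trimmed reads with Trimmomatic 0.36, mapped them with STAR 2.7.0 and ran HTSeq-count over exons. Its raw counts were deposited for each gene and library, and no normalization had been applied. The authors refer to a publication for the genome, and the name of its build, the annotation and the strand setting are not given in the sources used here, so paralogs that share reads are uncertain. Of 23235 lines, 7 shared 3 identifiers and were added up, for 23231 genes. Symbols were matched by identifier to RefSeq (Coco_2.0) for 21834 genes, and this annotation was used for names and gene order only. All columns were mapped to samples by their labels.

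The members and gene lists were chosen with earlier results of these data known. edgeR 4.0.16 (R 4.3.3) was run with TMM normalization, its low-count filter by stage and the quasi-likelihood F-test, on all 14 libraries with a mean per stage (20329 genes) and on the 12 libraries of 5 to 10 dpf with day and side terms (19998 genes). Adjustment of p-values (Benjamini-Hochberg) ran over all genes tested. Calls needed an adjusted p under 0.05 and a log2 change of at least 1, which for the trend is the fitted change over the 5 days from 5 to 10 dpf. SE is the absolute log2 change divided by the square root of F. Pools of a stage entered the trend and side fits as separate units although these terms differ only between stages, so their p-values can be too small, and limma 3.58.1 (voom, stage as a random block, estimated correlation 0.255) was run beside them. CPM used TMM library sizes, and log2 CPM a prior count of 2. Intervals are exact binomial 95% intervals of count ratios and cover counting error only, because PCR copies of a molecule could not be told from separate molecules. Replicates are pools of different fish. Named genes were the members, list genes with the largest called slopes and side differences or sharing a family with a member, and the 8 genes most correlated with each member. Not all list genes that met this rule were named. Some list genes, called or not, were named outside this rule, among them col1a1a, phex, ggcx, vkorc1 and sp7. The genes of the neighboring intervals and the marker levels printed are of the same lists. Alternatives were DESeq2 1.42.0, RLE normalization, equal depth, dropping the low-count filter, asking for 10 counts in each library, a replicate block, and libraries or stages left out. Python 3.11.15, numpy 2.4.6, pandas 2.3.3, scipy 1.17.1 and matplotlib 3.10.9 made the tables and plots. A comparison with protein length was not run, since lengths were not used here.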

Additional observations from a re-analysis of the deposited data

How the results depend on the processing

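With 2 pools per stage, stage levels of bglapl and otos rest on few fish, and pools of 8 to 10 dpf lay further apart than counting error. The slope of bglapl was 1.55 without 10 dpf, 1.02 with stage as a random block and 1.51 without replicate 1 of 9 dpf and replicate 2 of 10 dpf (chosen after seeing the data), and 1.14 to 1.38 with 1 library left out. The slope of otos turned to -0.11 with the random block, -0.12 without the side term and -0.20 within 5, 7 and 9 dpf, with 0.07 to 0.35 when 1 library was left out, and it was 0.45 (SE 0.16) without replicate 1 of 9 dpf and replicate 2 of 10 dpf. The side difference of bglapl was 0.26 without the day term and 1.84 for 5 to 8 dpf only (chosen after seeing the data), with a range of 0.86 to 1.61 over libraries left out, and that of otos 2.34 to 3.67. Fitted changes also turned with a library left out: for bglapl from 5 to 6 dpf (-0.079 to 0.35), 8 to 9 dpf (-0.048 to 1.64) and 9 to 10 dpf (-2.75 to 0.38), and for otos from 8 to 9 dpf (-1.84 to 2.55) and 9 to 10 dpf (-5.39 to 0.57).

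Over all genes, 3850 were called for the day term and 280 for the side term. The first count was 2541 with at least 10 counts in each library, a filter that both members fail, so that it gives no value for them, and 3200 to 4277 over libraries left out. The second was 432 without 10 dpf, 162 with the random block, 642 for 5 to 8 dpf only, 559 without replicate 1 of 9 dpf and replicate 2 of 10 dpf, and 151 to 513 over libraries left out. DEGs numbered 2012 from 5 to 6 dpf (970 to 2383 over libraries left out) and 531 from 6 to 7 dpf (28 to 1020). A stage left with 1 library is assumed to vary like the others. Shared genes among the 8 most like bglapl were 1 by Spearman rho and 4 by stage means, and for otos 0 and 4. The cause of these shifts was not tested.

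With the replicate number as a block, slopes were 1.24 and 0.21 and side differences 1.13 and 2.91 for bglapl and otos. In that fit 245 genes were called for the side term. Same-numbered libraries deviated from their stage means with r of -0.585 to 0.268 over 21 pairs of stages, so the numbers do not pair the libraries.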
